A study of Mus musculus with 6 samples.

Results

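The 10 genes described here are surface proteins and transcription factors by which hematopoietic stem and progenitor cells are recognised or maintained. They are the surface genes *Cd34*, *Slamf1*, *Cd48*, *Ly6a*, *Eng* and *Procr* and the regulators *Mecom*, *Hlf*, *Erg* and *Sox4*. They were taken by gene name from the deposited expression table, where they are 10 of 54532 genes, and 8 of the 10 were among the 14169 genes with enough counts to be tested. Hematopoietic stem cells renew themselves and give rise to all blood lineages, and they are recognised by combinations of surface proteins because no marker alone is specific to them. In mouse marrow they carry the SLAM receptor CD150 (*Slamf1*), Sca-1 (*Ly6a*), endoglin (*Eng*) and the endothelial protein C receptor (*Procr*) and lack CD48, whereas CD34 appears as they become progenitors. The 4 regulators are nuclear factors of these cells that are also known from leukemia.

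RNA was sequenced from GFP+ leukemia cells sorted out of mouse bone marrow, in 3 *WT Phf6,RE9a* libraries, numbered 1, 2 and 3, and 3 *VC Phf6,RE9a* libraries, numbered 11, 12 and 13. Both groups carried the RUNX1-ETO9a (RE9a) retrovirus, a truncated form of the RUNX1-ETO fusion linked to GFP, which had been put into Lin- fetal liver cells that were then passed through young male recipients. Both groups also carried the floxed *Phf6* allele on their X chromosome (*Phf6 fl/y*), and *VC Phf6,RE9a* cells in addition carried *Vav1-Cre*, which deletes the allele in hematopoietic cells. The comparison asks which genes differ in AML cells in which *Phf6* was targeted for deletion. The *WT Phf6,RE9a* cells carried no Cre, so effects of the Cre and of the deletion cannot be told apart. The passage and age of the sequenced leukemias, and whether the libraries of a group came from different mice, are not given in the sources used here.

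The authors deposited whole-number counts per gene, and total counts ran from 15675358 to 16817994 per library. Levels are given in CPM, which are counts scaled to the library size after TMM, and 3 counts in a library came to between 0.175 and 0.204 CPM. *Phf6*, the targeted gene, went from 64.3 ± 7.15 to 20.3 ± 2.37 CPM (SD, n = 3), and the groups did not overlap (log2FC -1.66 ± 0.13, edgeR adjusted p = 9.32e-05). Its *VC Phf6,RE9a* libraries still held 388, 314 and 331 counts, and counts over the whole gene do not show whether the deleted part was absent. Here log2FC is the log2 fold change of *VC Phf6,RE9a* relative to *WT Phf6,RE9a* cells, and a value after its ± sign is the standard error. Adjusted p-values are from the quasi-likelihood test of edgeR over the 14169 genes (Benjamini-Hochberg, threshold 0.05). In bulk RNA, fewer cells of a type and less RNA per cell cannot be told apart.

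Of the 8 members tested, 5 were lower in *VC Phf6,RE9a* cells (*Cd34*, *Slamf1*, *Cd48*, *Ly6a* and *Erg*), 2 were higher (*Eng* and *Sox4*) and *Hlf* did not pass the threshold. Over all genes tested, 22.7% were lower and 21.5% were higher. The median log2 fold change of the 8 was -1.82, against 0.013 over all genes tested. For 7 of the 8 the CPM of the groups did not overlap, which was so for 57.3% of all genes tested. *Procr* and *Mecom* had too few counts to be tested. The surface genes did not move in 1 direction, since 4 of the 5 tested were lower and *Eng* was higher. The plot of CPM by library shows all 10 genes, with a dotted line near 3 counts, around which *Mecom* stayed in both groups.

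**Figure D1:**
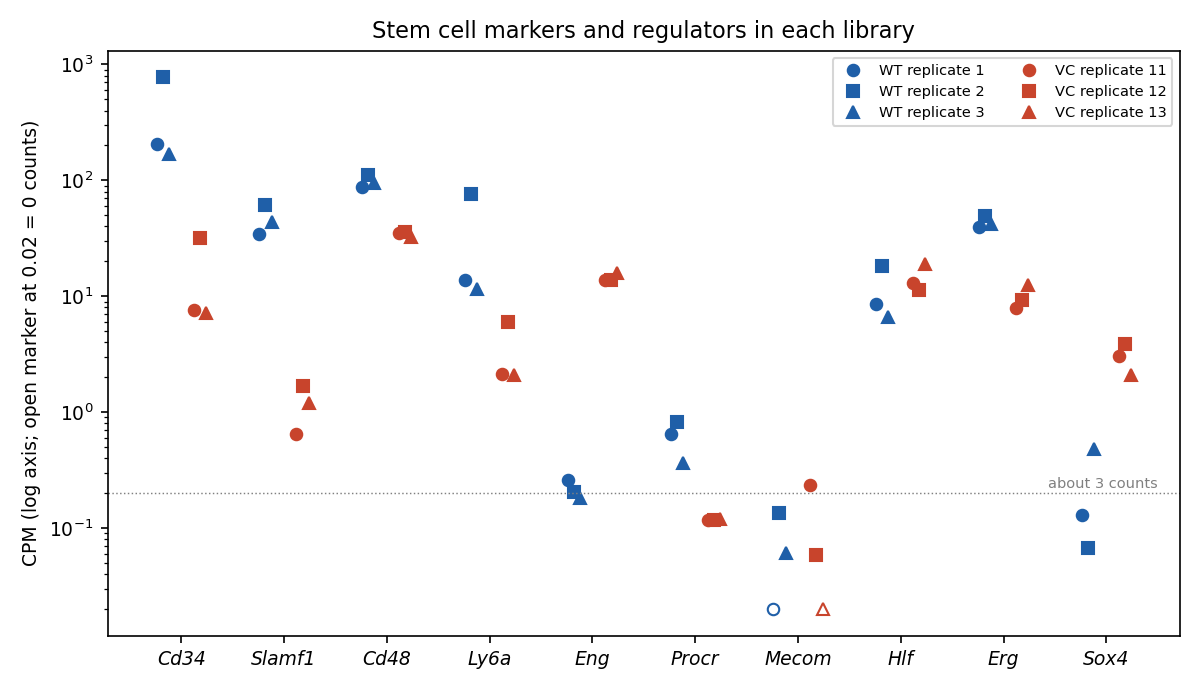
CPM of the 10 genes (log axis) in each library, with *WT Phf6,RE9a* libraries in blue and *VC Phf6,RE9a* libraries in red, a marker shape for each library and open markers for 0 counts. *Slamf1* lies at 34.7 to 61.2 CPM in blue and 0.649 to 1.69 CPM in red, *Eng* at 0.182 to 0.260 CPM in blue and 13.7 to 15.9 CPM in red, and the colours overlap for *Hlf* and *Mecom*.

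For 9 of the 10 genes (all but *Ly6a*) RefSeq's promoter table for GRCm38.p6 held a window, 12 windows in all. The 250 bases before the start are shown for 4 genes, all of which lie on the plus strand: *Slamf1* and *Eng*, which had the largest decrease and increase among the members in the edgeR fit of all 6 libraries, *Cd48*, the neighbour of *Slamf1*, and *Cd34*, which had the highest count of any member. They are chr1:171766882-171767131 for *Slamf1*, chr1:171681742-171681991 for *Cd48*, chr1:194938571-194938820 for *Cd34* and chr2:32646345-32646594 for *Eng*. Capitals mark matches on either strand of the letters TGTGGT for RUNX, of AGATAA for GATA factors, of GGAAGT for ETS factors and of CANNTG for the E-box.
Slamf1: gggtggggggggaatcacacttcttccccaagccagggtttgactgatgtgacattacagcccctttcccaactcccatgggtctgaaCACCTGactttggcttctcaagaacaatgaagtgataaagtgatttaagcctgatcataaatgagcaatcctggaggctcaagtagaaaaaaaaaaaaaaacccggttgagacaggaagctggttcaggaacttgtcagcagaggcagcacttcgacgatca
Cd48: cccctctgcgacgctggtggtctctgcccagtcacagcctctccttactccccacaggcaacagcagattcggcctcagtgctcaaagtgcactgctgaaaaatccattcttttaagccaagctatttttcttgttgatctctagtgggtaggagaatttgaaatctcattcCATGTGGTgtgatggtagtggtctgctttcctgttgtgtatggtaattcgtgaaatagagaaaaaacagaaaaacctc
Cd34: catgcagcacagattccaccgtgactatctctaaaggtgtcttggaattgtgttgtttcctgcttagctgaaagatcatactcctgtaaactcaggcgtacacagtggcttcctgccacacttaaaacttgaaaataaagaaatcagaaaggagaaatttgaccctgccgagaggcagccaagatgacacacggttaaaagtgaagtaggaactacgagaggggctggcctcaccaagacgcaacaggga
Eng: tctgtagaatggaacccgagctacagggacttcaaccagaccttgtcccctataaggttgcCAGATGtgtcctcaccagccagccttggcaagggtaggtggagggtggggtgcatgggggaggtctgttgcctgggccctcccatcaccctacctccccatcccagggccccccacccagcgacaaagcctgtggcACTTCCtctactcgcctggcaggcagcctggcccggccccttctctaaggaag

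In these windows the RUNX letters, the motif of the DNA-binding part that RE9a keeps, were found in *Cd48*, beginning 76 bases before the start. They overlap there with E-box letters that begin 78 bases before it. The *Slamf1* window held E-box letters 162 bases before the start. In *Eng*, E-box letters began 189 bases and ETS letters on the minus strand 53 bases before the start. None of these letters was in the *Cd34* window. Among all 32851 promoter windows of this length, 14.0% held the RUNX letters, 9.99% the GATA letters, 19.7% the ETS letters and 66.2% the E-box letters. The matches describe letters and do not show binding.

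*Cd34* encodes a heavily glycosylated surface protein of progenitors and endothelial cells, and the gene lies at chr1:194938819-194961279 on the plus strand (GRCm38). The reads counted for it were 3159, 11395 and 2807 in *WT Phf6,RE9a* libraries 1, 2 and 3 and 129, 543 and 120 in *VC Phf6,RE9a* libraries 11, 12 and 13. *WT Phf6,RE9a* library 2 and *VC Phf6,RE9a* library 12 each stood above the others of their group, and the groups did not overlap. Mean CPM was 383 ± 339 in *WT Phf6,RE9a* cells against 15.5 ± 14.0 in *VC Phf6,RE9a* cells (SD, n = 3), with log2FC -4.63 ± 0.83 (edgeR adjusted p = 0.00347). *WT Phf6,RE9a* library 2 was 4.12-fold above the mean of the other *WT Phf6,RE9a* libraries and *VC Phf6,RE9a* library 12 was 4.29-fold above the mean of the other *VC Phf6,RE9a* libraries. The log2 fold change was -3.61 without *WT Phf6,RE9a* library 2 and -5.69 without *VC Phf6,RE9a* library 12, with adjusted p-values from edgeR of 0.00354 and 0.00397. The direction thus held without either library, while the size of the fold moved, and without *VC Phf6,RE9a* library 12 it was larger than that of *Slamf1* (-5.65).

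An antisense gene, *Gm16897*, shares exon sequence with *Cd34*, and it was picked for description after its values were seen. It had 70, 297 and 64 counts in *WT Phf6,RE9a* and 7, 7 and 6 in *VC Phf6,RE9a* libraries, with log2FC -4.57 ± 0.77 (edgeR adjusted p = 0.00255). It too was highest in *WT Phf6,RE9a* library 2, but not in *VC Phf6,RE9a* library 12. Whether counting used the strand is not given in the sources used here, so reads of *Cd34* and of its antisense gene cannot be told apart. *Podxl*, the podocalyxin gene of the CD34 family, was at 363 ± 72.9 CPM against 387 ± 36.6 CPM in *VC Phf6,RE9a* cells (SD, n = 3), which did not pass (log2FC 0.09, edgeR adjusted p = 0.67). Its relative *Podxl2* had too few counts to be tested.

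*Slamf1*, which encodes the SLAM receptor CD150, lies at chr1:171767127-171801184, and *Cd48*, which encodes a GPI-anchored SLAM protein, lies at chr1:171682009-171705258, both on the plus strand and 61869 bp apart. *Slamf1* had 535, 902 and 724 counts in *WT Phf6,RE9a* and 11, 29 and 20 counts in *VC Phf6,RE9a* libraries. Each *VC Phf6,RE9a* library was far below each *WT Phf6,RE9a* library. Scaled to library size this was 46.6 ± 13.4 against 1.18 ± 0.52 CPM (SD, n = 3), with log2FC -5.30 ± 0.35 (edgeR adjusted p = 5.16e-05). The ratio of the summed counts, scaled to library size, was 39.3 with a 95% counting interval from 30.4 to 51.7, which covers counting error only. *Cd48* had 1336, 1652 and 1570 counts in *WT Phf6,RE9a* and 600, 620 and 541 counts in *VC Phf6,RE9a* libraries. Libraries of a group lay close together and the groups did not overlap. In CPM these were 97.9 ± 12.9 against 34.6 ± 2.13 (SD, n = 3), with log2FC -1.50 ± 0.12 (edgeR adjusted p = 9.09e-05). CD150 and CD48, whose presence and absence together mark stem cells in normal marrow, were thus both lower at the RNA level.

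No other SLAM gene of this stretch of chromosome 1 was lower by the test. *Slamf7*, a receptor of NK cells and plasma cells, went from 0.650 to 1.75 CPM (log2FC 1.42 ± 0.38, edgeR adjusted p = 0.0175), a call that was lost without *WT Phf6,RE9a* library 1 or 3 or *VC Phf6,RE9a* library 11 or 12 (adjusted p from 0.0544 to 0.0715). *Ly9* (log2FC 1.35, adjusted p = 0.0651), *Cd244a*, the receptor of CD48 (0.57, adjusted p = 0.381), and *Cd84* (-0.40, adjusted p = 0.2004, all from edgeR) did not pass. *Cd84* was the most abundant of them, with 119 ± 43.9 CPM against 90.2 ± 4.41 CPM in *VC Phf6,RE9a* cells (SD, n = 3). *Slamf6*, *Slamf8*, *Slamf9* and the adaptor gene *Sh2d1a* had too few counts to be tested. *Sh2d1b1*, which encodes the SLAM adaptor EAT-2 and lies farther away on chromosome 1, fell from 8.48 to 0.568 CPM (log2FC -3.88 ± 0.45, edgeR adjusted p = 0.000496). In all, 1 of the 5 tested genes of this list of 9 was lower and 1 was higher, against 22.7% and 21.5% of all genes tested. *Gm37010*, a gene within *Cd48* on the same strand that shares no exon with it, had at most 30 counts per library.

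**Figure D2:**
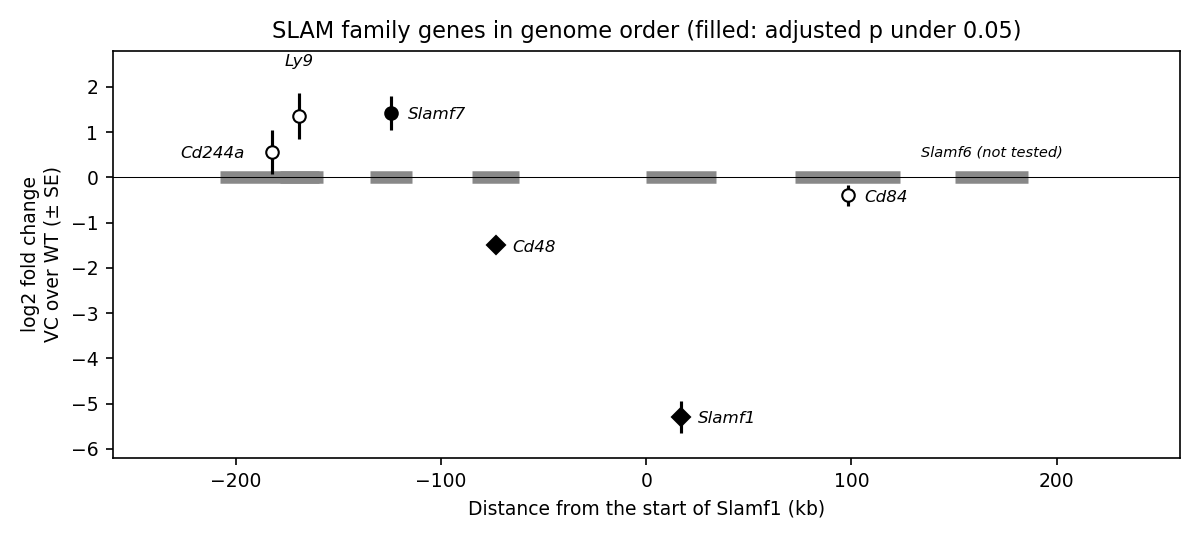
Log2 fold change (*VC Phf6,RE9a* over *WT Phf6,RE9a*) with 1 standard error for the SLAM genes around *Slamf1*, at the middle of each gene on an axis of distance in kb from the start of *Slamf1*, with grey bars for the extent of the genes, diamonds for *Cd48* and *Slamf1* and filled markers for an adjusted p under 0.05. *Slamf1* at -5.30 and *Cd48* at -1.50 lie between *Slamf7* at 1.42 on the left and *Cd84* at -0.40 on the right.

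*Ly6a* encodes Sca-1, a GPI-anchored protein of stem cells that is also induced by interferon, and lies at chr15:74994877-74998031 on the minus strand. Reads counted for it were 212, 1127 and 192 in *WT Phf6,RE9a* and 36, 102 and 35 in *VC Phf6,RE9a* libraries. As for *Cd34*, *WT Phf6,RE9a* library 2 and *VC Phf6,RE9a* library 12 stood above the others of their group, and the groups did not overlap. In the mean it fell from 33.9 ± 36.8 to 3.38 ± 2.22 CPM (SD, n = 3), with log2FC -3.32 ± 0.83 (edgeR adjusted p = 0.0141). Without *WT Phf6,RE9a* library 2, which was 6.02-fold above the mean of the other *WT Phf6,RE9a* libraries, the log2 fold change was -1.91 (adjusted p = 0.0164), and without *VC Phf6,RE9a* library 12 it was -4.00 (adjusted p = 0.0241, both from edgeR). Without *VC Phf6,RE9a* library 11 it was -3.07 with an adjusted p of 0.0541 from edgeR, so that the call was lost. *Ly6a* has close paralogs, and how reads shared with them were counted is not given in the sources used here.

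The 4 other genes of the Ly6 family that could be tested, of 9 listed, were all higher, against 21.5% of all genes tested. The median log2FC of these 4, *VC Phf6,RE9a* over *WT Phf6,RE9a*, was 2.67. *Ly6e*, the most abundant, had 10304, 9893 and 13545 counts in *WT Phf6,RE9a* and 19293, 17010 and 20195 counts in *VC Phf6,RE9a* libraries (log2FC 0.62 ± 0.13, edgeR adjusted p = 0.0058). *Ly6c2*, a monocyte marker, rose from 10.9 to 53.3 CPM (log2FC 2.28 ± 0.41, edgeR adjusted p = 0.00338). *Ly6g*, a neutrophil marker, rose from 0.546 to 6.62 CPM (3.57 ± 0.67, adjusted p = 0.0041), and *Ly6d*, a marker of early lymphoid cells, from 0.247 to 2.16 CPM (3.05 ± 0.76, adjusted p = 0.0141, both from edgeR). Without *WT Phf6,RE9a* library 3 the log2FC of *Ly6d* was 4.86. *Ly6a* thus went down while these relatives went up. The summed level of 14 granulocyte and monocyte markers, *Ly6g* and *Ly6c2* among them, lay between 191 and 560 CPM in *WT Phf6,RE9a* and between 1082 and 3760 CPM in *VC Phf6,RE9a* libraries, and its part in these values was not tested.

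*Eng* encodes endoglin, a co-receptor for TGF-β and BMP ligands of endothelial and stem cells, and lies at chr2:32646595-32682669 on the plus strand. It had 4, 3 and 3 counts in *WT Phf6,RE9a* and 232, 236 and 268 counts in *VC Phf6,RE9a* libraries. It was at the limit of detection in every *WT Phf6,RE9a* library and clearly read in every *VC Phf6,RE9a* library. Its level rose from 0.215 ± 0.0403 to 14.5 ± 1.27 CPM (SD, n = 3), with log2FC 6.03 ± 0.27 (edgeR adjusted p = 1.92e-05). The ratio of the summed counts, scaled to library size, was 67.4, with a 95% counting interval from 36.5 to 141. *Fpgs*, an enzyme gene on the opposite strand whose exons overlap those of *Eng*, had 388, 370 and 467 counts in *WT Phf6,RE9a* and 373, 442 and 419 counts in *VC Phf6,RE9a* libraries (log2FC -0.11, edgeR adjusted p = 0.468). Its groups overlapped, unlike those of *Eng*.

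*Eng* is also a gene of endothelial cells. Of 10 endothelial markers 4 were tested, and 1 was lower and 1 was higher, against 22.7% and 21.5% of all genes tested. The summed level of the 10 lay between 63.5 and 91.0 CPM in *WT Phf6,RE9a* and between 58.4 and 74.5 CPM in *VC Phf6,RE9a* libraries. Most of that sum came from *Plvap*, which fell from 43.5 to 16.7 CPM (log2FC -1.39, adjusted p = 0.00182), and *Egfl7*, which rose from 30.7 to 44.5 CPM (0.54, adjusted p = 0.037, both from edgeR). The call of *Egfl7* was lost without *WT Phf6,RE9a* library 1 or 3 or *VC Phf6,RE9a* library 11 or 13 (edgeR adjusted p from 0.0863 to 0.123). *Pecam1* (log2FC 1.21, adjusted p = 0.103) and the VEGF receptor gene *Kdr* (0.20, 0.745) did not pass the edgeR test. Among defining markers, *Emcn* was at 0 in every library, *Ptprb* and *Cldn5* had at most 3 counts, and *Cdh5*, the VE-cadherin gene, had 2, 2 and 3 counts in *WT Phf6,RE9a* and 4, 1 and 12 counts in *VC Phf6,RE9a* libraries. Unlike *Cdh5*, the low genes *Vwf* and *Tie1* of this list did not overlap between the groups and were higher in each *VC Phf6,RE9a* library. Absence of overlap, in either direction, was found for 57.3% of all genes tested. That share is of genes with enough counts to be tested and does not cover genes as low as *Vwf* and *Tie1*. *Vwf*, the von Willebrand factor gene, had 2, 3 and 1 counts in *WT Phf6,RE9a* and 11, 12 and 7 counts in *VC Phf6,RE9a* libraries. *Tie1*, an endothelial receptor gene, had 2, 0 and 1 counts in *WT Phf6,RE9a* and 7, 4 and 7 counts in *VC Phf6,RE9a* libraries, and both were too low to be tested. *Tek* and *Esam*, stem cell surface genes that endothelial cells share, were also higher in *VC Phf6,RE9a* cells, with 0, 0 and 0 counts against 72, 217 and 27 for *Tek* and 20, 32 and 22 against 170, 107 and 164 for *Esam*. What part endothelial cells had in the *Eng* values was not tested.

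The receptors and signalling proteins that work with endoglin moved in both directions. Of 16 listed genes 12 were tested, and 6 were lower, 2 were higher and 4 did not pass, with a median log2 fold change of -0.47. *Acvrl1*, the ALK1 receptor with which endoglin signals in endothelial cells, rose from 1.15 to 6.77 CPM (log2FC 2.55 ± 0.56, edgeR adjusted p = 0.00829), and by 1.91 on the log2 scale without *VC Phf6,RE9a* library 11. *Smad6*, an inhibitor of BMP signalling, rose from 0.412 to 2.98 CPM (2.84 ± 0.33, edgeR adjusted p = 0.000486). These were the 2 of the 12 that passed the threshold as higher, both by less than *Eng*. The TGF-β receptor genes *Tgfbr1* (97.1 to 21.3 CPM, log2FC -2.19, adjusted p = 0.000445) and *Tgfbr2* (165 to 85.0 CPM, log2FC -0.96, adjusted p = 0.00073) were lower, as was the BMP receptor gene *Bmpr1a* (-2.12, adjusted p = 0.00459, all from edgeR). *Smad7*, an inhibitor of TGF-β signalling (-1.12, adjusted p = 0.00467), *Smad4*, the shared signal carrier (-0.61, adjusted p = 0.00134), and the ligand gene *Tgfb1* (-0.52, adjusted p = 0.00448, all from edgeR) were lower as well. *Bmpr2* (log2FC -0.41, adjusted p = 0.154), *Smad1* (0.07, 0.556), *Smad5* (-0.13, 0.306) and the target gene *Id1* (0.39, 0.0998) did not pass the edgeR test.

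*Procr*, the gene of the endothelial protein C receptor (CD201), lies at chr2:155751117-155755471 on the plus strand. It had 10, 12 and 6 counts in *WT Phf6,RE9a* and 2 counts in each of the *VC Phf6,RE9a* libraries. The groups did not overlap, but the gene was too low for the count filter and was not tested. The ratio of the summed counts, *WT Phf6,RE9a* over *VC Phf6,RE9a* and scaled to library size, was 5.09, with a 95% counting interval from 2.07 to 15.0. In a fit with no count filter the log2FC was -2.29 ± 0.70 (edgeR adjusted p = 0.0276). Of 6 genes listed for the protein C pathway 4 were tested and 3 were lower, against 22.7% of all genes tested. *F2r*, the thrombin receptor PAR1, fell from 677 ± 4.36 to 489 ± 15.4 CPM (SD, n = 3), with log2FC -0.47 ± 0.08 (edgeR adjusted p = 0.00326). *F2rl2*, its relative PAR3, fell from 34.1 to 6.98 CPM (-2.29 ± 0.34, adjusted p = 0.0015), and *Pros1*, the cofactor protein S, from 53.3 to 13.7 CPM (-1.95 ± 0.44, adjusted p = 0.0093, both from edgeR). Without *VC Phf6,RE9a* library 12 the log2FC of *Pros1* was -2.67. *Thbd*, the thrombomodulin gene, had a log2 fold change of -1.30 and did not pass (adjusted p = 0.0678 from edgeR).

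*Mecom* encodes the zinc finger factor EVI1, a regulator of stem cell renewal that drives some human AML, and lies at chr3:29951296-30548008 on the minus strand. It had 0, 2 and 1 counts in *WT Phf6,RE9a* and 4, 1 and 0 counts in *VC Phf6,RE9a* libraries. It was at or near the limit of detection in both groups, it was not tested, and no fold is given. Of 9 listed relatives with a PR domain 8 were tested, of which 3 were lower and 0 were higher, with a median log2 fold change of -0.45. For comparison, 22.7% of all genes tested were called lower and 21.5% were called higher. *Prdm11* (log2FC -1.06, adjusted p = 0.000942), *Prdm2* (-0.42, 0.00805) and *Prdm9* (-1.15, 0.0176, all from edgeR) were the lower ones, and *Prdm9* lost its call without *VC Phf6,RE9a* library 11 or 13 (adjusted p = 0.0614 and 0.0596). *Prdm16*, the relative best known in stem cells, was at 13.9 ± 4.43 CPM against 10.04 ± 0.626 CPM in *VC Phf6,RE9a* cells (SD, n = 3), which did not pass (log2FC -0.47, edgeR adjusted p = 0.169). *Prdm1* (-1.004, adjusted p = 0.0987), *Prdm10* (-0.27, 0.077), *Prdm15* (-0.16, 0.325) and *Prdm4* (0.04, 0.736) did not pass the edgeR test either.

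*Hlf* encodes a bZIP factor that keeps stem cells quiescent and lies at chr11:90336536-90390895 on the minus strand. It had 132, 269 and 110 counts in *WT Phf6,RE9a* and 219, 194 and 317 counts in *VC Phf6,RE9a* libraries. *WT Phf6,RE9a* library 2 lay within the range of the *VC Phf6,RE9a* libraries, and the groups overlapped. Its mean was 11.2 ± 6.22 CPM against 14.4 ± 3.96 CPM in *VC Phf6,RE9a* cells (SD, n = 3), with log2FC 0.37 ± 0.38 (edgeR adjusted p = 0.474). Without *WT Phf6,RE9a* library 2, which was 2.40-fold above the mean of the other *WT Phf6,RE9a* libraries, the log2 fold change was 0.91 with an adjusted p of 0.0347 from edgeR, so that *Hlf* passed the threshold there. The 3 related bZIP genes were all tested and none passed the edgeR test, with log2 fold changes of 0.11 for *Tef* (adjusted p = 0.486), -0.08 for *Dbp* (adjusted p = 0.796) and -0.81 for the repressor *Nfil3* (adjusted p = 0.146).

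*Erg* encodes an ETS factor required by stem cells and lies at chr16:95359169-95586593 on the minus strand. It had 608, 726 and 690 counts in *WT Phf6,RE9a* and 134, 160 and 212 counts in *VC Phf6,RE9a* libraries. Libraries of a group lay close together and the groups did not overlap. Its mean fell from 43.5 ± 5.12 to 9.94 ± 2.40 CPM (SD, n = 3), with log2FC -2.13 ± 0.19 (edgeR adjusted p = 0.000156). Among 5 other ETS genes tested, of 6 listed, 2 were lower and 2 were higher, against 22.7% and 21.5% of all genes tested. *Fli1*, the closest relative of *Erg*, fell from 138 to 67.3 CPM (log2FC -1.03 ± 0.09, edgeR adjusted p = 0.000158). *Elf1* fell from 515 to 139 CPM (-1.89 ± 0.15, edgeR adjusted p = 0.000112). *Ets1* rose from 74.3 to 115 CPM (0.63 ± 0.09, adjusted p = 0.00104), and *Ets2* from 1.71 to 15.8 CPM (3.19 ± 0.43, adjusted p = 0.000952, both from edgeR). *Gabpa* did not pass (log2FC -0.09, edgeR adjusted p = 0.492).

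*Sox4*, an HMG box factor of progenitors and early B cells, lies at chr13:28948919-28953713 on the minus strand as a gene with 1 transcript. It had 2, 1 and 8 counts in *WT Phf6,RE9a* and 52, 67 and 35 counts in *VC Phf6,RE9a* libraries. Every *VC Phf6,RE9a* library was above every *WT Phf6,RE9a* library, and *WT Phf6,RE9a* libraries 1 and 2 were under 3 counts. Its mean rose from 0.227 ± 0.225 to 3.02 ± 0.913 CPM (SD, n = 3), with log2FC 3.65 ± 0.59 (edgeR adjusted p = 0.00211). Without *WT Phf6,RE9a* library 3 it was 4.81 (adjusted p = 0.00133 from edgeR). The ratio of the summed counts, scaled to library size, was 12.8, with a 95% counting interval from 6.97 to 26.2, and 30.4 without *WT Phf6,RE9a* library 3. *Sox12*, of the same SOXC group, rose from 1.24 to 7.15 CPM (log2FC 2.53 ± 0.54, edgeR adjusted p = 0.00738, and 3.25 without *WT Phf6,RE9a* library 1), and *Sox11* was at 0 in every library. Because *Sox4* is also a gene of early B cells, their markers are given beside it. The 9 B cell markers summed to between 2.85 and 8.41 CPM in *WT Phf6,RE9a* libraries and to 74.0, 75.2 and 26.3 CPM in *VC Phf6,RE9a* libraries 11, 12 and 13. Against 21.5% of all genes tested, all 5 of these markers that were tested were higher. *Ighm* (3.52 to 36.1 CPM) and *Pax5* (0.121 to 4.76 CPM) are among them, and the part of these markers in the *Sox4* values was not tested.

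**Figure D3:**
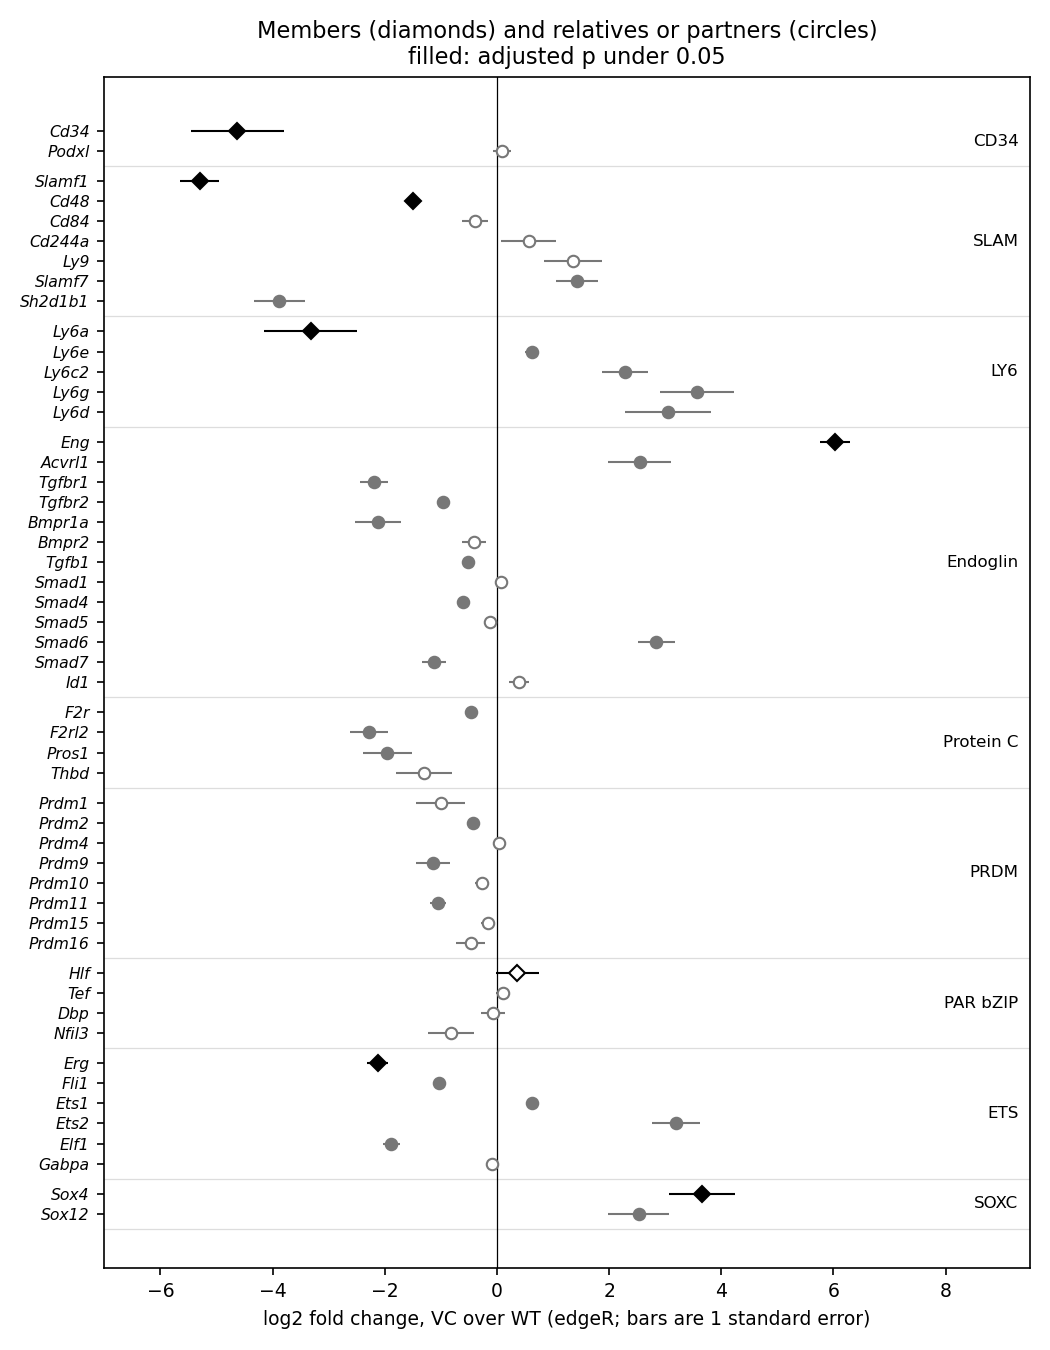
Log2 fold change (*VC Phf6,RE9a* over *WT Phf6,RE9a*, edgeR) with 1 standard error for the tested members (black diamonds) and the tested genes of their families and pathways (grey circles), by family, with filled markers for an adjusted p under 0.05. *Ly6a* lies at -3.32 while the Ly6 genes below it lie between 0.62 and 3.57, *Eng* at 6.03 lies to the right of its partners, of which *Smad6* is highest at 2.84, and the 3 relatives of *Hlf* have open markers.

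Compared per gene length, in the FPKM values that the authors deposited, *Cd48* was highest in both groups. In *WT Phf6,RE9a* cells the mean levels ran from *Cd48* at 81.8 FPKM over *Cd34* at 52.1, *Ly6a* at 28.0, *Erg* at 12.5, *Slamf1* at 7.51 and *Hlf* at 1.66 to *Procr* at 0.298, *Eng* at 0.0528, *Sox4* at 0.0470 and *Mecom* at 0.00522 FPKM. The ranges over libraries overlapped between *Cd48* and *Cd34*, *Cd34* and *Ly6a*, *Ly6a* and *Erg*, and *Eng* and *Sox4*, so that their order is not fixed beyond the spread. In *VC Phf6,RE9a* cells *Cd48* at 28.7 FPKM stood clear of *Eng* at 3.52, *Erg* at 2.83, *Ly6a* at 2.78, *Hlf* at 2.12 and *Cd34* at 2.10 FPKM, and each of these 5 overlapped with its neighbour in the order. *Sox4* at 0.622, *Slamf1* at 0.189, *Procr* at 0.0573 and *Mecom* at 0.00780 FPKM followed, each without overlap with the next. By the means, *Eng* moved from the 8th to the 2nd place, and *Cd34* from the 2nd to the 6th. The overlaps leave these places unfixed in both groups. In *VC Phf6,RE9a* library 12, *Ly6a* at 4.90 and *Cd34* at 4.31 were above *Eng* at 3.37 FPKM.

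**Figure D4:**
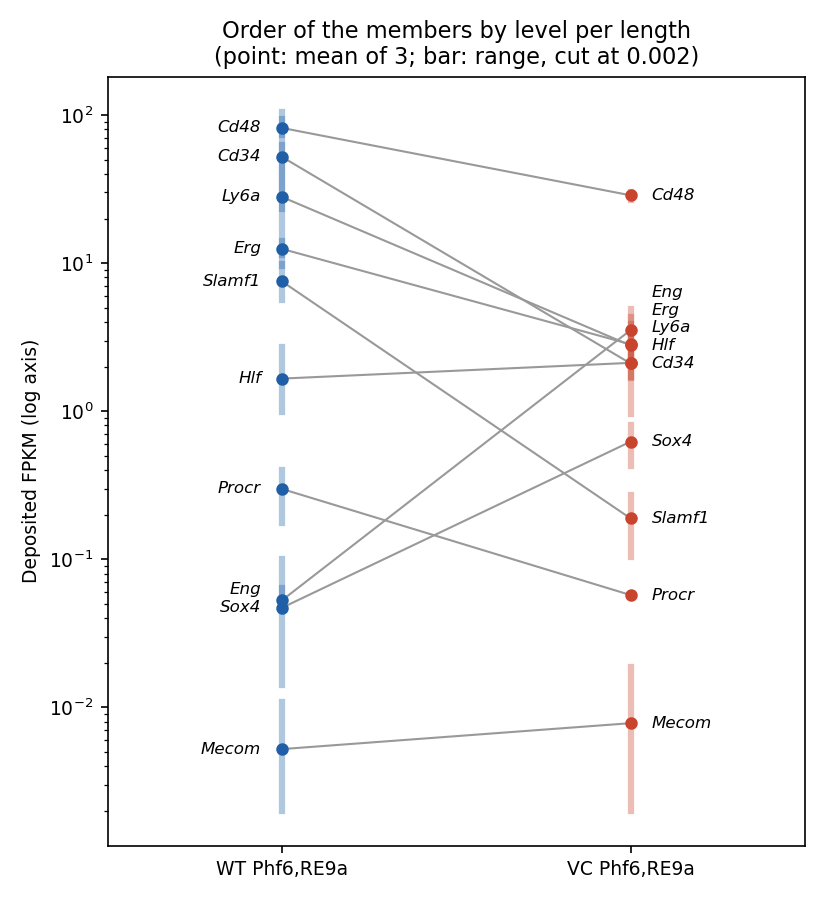
Deposited FPKM (log axis) of the 10 genes in *WT Phf6,RE9a* cells on the left and *VC Phf6,RE9a* cells on the right, with points for the mean of 3 libraries, bars for their range, lines joining each gene and names of near values set one above the other in order. Lines of *Cd34* (52.1 to 2.10) and *Slamf1* (7.51 to 0.189) fall steeply and cross those of *Eng* (0.0528 to 3.52) and *Sox4* (0.0470 to 0.622), while that of *Hlf* (1.66 to 2.12) is nearly level.

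The spread within groups was not even across libraries. *WT Phf6,RE9a* library 2 was the highest of its group for 8 of the 10 members, against 35.9% of all genes tested, and *VC Phf6,RE9a* library 12 for 5 of the 10, against 33.1%. The 8 include *Procr* and *Mecom*, which were not among the genes tested and had only 12 and 2 counts in *WT Phf6,RE9a* library 2. The step was large for *Ly6a*, *Cd34* and *Hlf*, at 6.02-fold, 4.12-fold and 2.40-fold over the mean of the other *WT Phf6,RE9a* libraries, and small for *Slamf1* at 1.56-fold and *Cd48* at 1.23-fold. *Cd93*, the AA4.1 marker of fetal progenitors, was named after its values were seen. It had 952, 4053 and 1131 counts in *WT Phf6,RE9a* and 304, 249 and 122 counts in *VC Phf6,RE9a* libraries, with *WT Phf6,RE9a* library 2 highest as well. The plots of CPM by library show the same marker on top for *Cd34*, its antisense gene, *Ly6a* and *Cd93* in *WT Phf6,RE9a* cells.

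**Figure D5:**
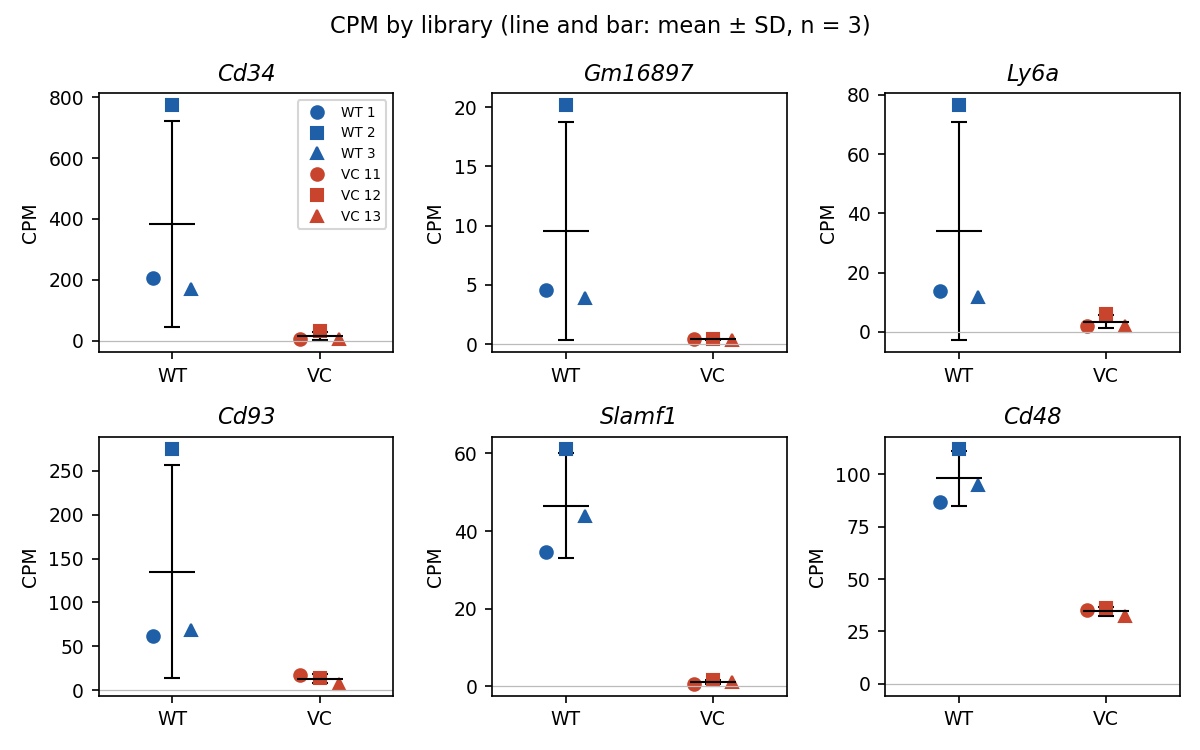
CPM in each library for *Cd34*, its antisense gene *Gm16897*, *Ly6a*, *Cd93*, *Slamf1* and *Cd48*, with linear axes, *WT Phf6,RE9a* libraries in blue, *VC Phf6,RE9a* libraries in red and lines with bars for the mean ± SD (n = 3). *WT Phf6,RE9a* library 2 (blue square) reaches 773 CPM for *Cd34* and 76.5 CPM for *Ly6a*, far above the other blue markers, while for *Slamf1* and *Cd48* it lies closer to them, at 61.2 and 112 CPM.

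Other surface genes of stem and progenitor cells moved in both directions. Of 35 listed, 30 were tested, with 9 lower, 13 higher and 8 that did not pass, and a median log2 fold change of 0.79. Shares over all genes tested were 22.7% lower and 21.5% higher. The 13 called higher became 9 without *WT Phf6,RE9a* library 1, without *VC Phf6,RE9a* library 11 or with at least 10 counts in every library. *Kit*, the stem cell factor receptor, fell from 2419.7 ± 471 to 273 ± 70.1 CPM (SD, n = 3), with log2FC -3.15 ± 0.23 (edgeR adjusted p = 7.75e-05). *Itga2b*, the CD41 gene of early and megakaryocytic progenitors, fell from 237 to 14.3 CPM (-4.05 ± 0.21, edgeR adjusted p = 2.84e-05). The tetraspanin genes *Cd81* (-1.91, adjusted p = 0.000112) and *Cd82* (-1.01, adjusted p = 0.000238) and the IL-33 receptor gene *Il1rl1* (-0.98, adjusted p = 0.00471, all from edgeR) were lower too. *Neo1*, the neogenin gene, had 77, 690 and 238 counts in *WT Phf6,RE9a* and 3, 3 and 0 in *VC Phf6,RE9a* libraries (log2FC -7.46 ± 1.13, edgeR adjusted p = 0.00159). Its ratio of summed counts was 183 with a 95% counting interval from 83.7 to 499, and 83.8 without *WT Phf6,RE9a* library 2.

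Among the genes that were higher, *Pdzk1ip1* rose from 19.0 to 89.5 CPM (log2FC 2.24 ± 0.14, edgeR adjusted p = 4.17e-05). *Esam*, an adhesion gene shared by stem and endothelial cells, rose from 1.60 to 8.67 CPM (2.44 ± 0.32, edgeR adjusted p = 0.000847). *Fcgr2b*, the inhibitory Fc receptor gene, had a log2 fold change of 1.16 (adjusted p = 5.42e-05), *Ctnnal1* of 1.10 (adjusted p = 0.00148), *Bst2*, an interferon-induced gene, of 0.77 (adjusted p = 0.00184) and *Adgrg1*, the GPR56 gene, of 0.34 (adjusted p = 0.0327, all from edgeR). The call of *Adgrg1* was lost without *WT Phf6,RE9a* library 1 or 3 or any 1 of the *VC Phf6,RE9a* libraries (edgeR adjusted p from 0.0572 to 0.107).

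Of 41 other stem and progenitor regulators listed, 33 were tested, with 13 lower, 11 higher and 9 that did not pass, and a median log2 fold change of -0.23. Here too the shares over all genes tested were 22.7% lower and 21.5% higher. *Klf2*, a quiescence factor, fell from 886 to 147 CPM (log2FC -2.59 ± 0.41, edgeR adjusted p = 0.00203). *Gfi1*, which encodes a transcriptional repressor found in stem cells and granulocytes, fell from 42.4 to 3.78 CPM (-3.48 ± 0.33, adjusted p = 0.000194), and the nuclear receptor gene *Nr4a2* from 126 to 17.9 CPM (-2.82 ± 0.17, adjusted p = 4.39e-05, both from edgeR). *Bmi1*, a Polycomb gene (-0.88, adjusted p = 0.000278), *Etv6* (-0.75, adjusted p = 0.000463) and *Gata2* (-0.71, adjusted p = 0.00869, all from edgeR) were lower by less. In the other direction, *Hmga2*, a chromatin gene of fetal stem cells, rose from 0.815 to 16.8 CPM (4.35 ± 0.35, adjusted p = 0.000102), and *Lmo2*, a bridging factor of stem and erythroid cells, from 90.4 to 332 CPM (1.88 ± 0.14, adjusted p = 8.62e-05, both from edgeR). *Gfi1b* (0.85, adjusted p = 0.00214), *Txnip* (0.49, adjusted p = 0.0117) and *Ldb1* (0.46, adjusted p = 0.0034, all from edgeR) were higher by less.

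Markers of some other marrow cells differed between the groups as well, and their part in the values of the 10 genes was not tested. The counts of markers called below stand against 22.7% lower and 21.5% higher over all genes tested. Mast cell and basophil markers, led by *Cpa3*, *Hdc* and *Cma1*, summed to between 18855.9 and 29930.2 CPM in *WT Phf6,RE9a* and between 4972 and 5419 CPM in *VC Phf6,RE9a* libraries, with 9 of 10 lower. *Kit* and *Gata2* are on this list too. Erythroid markers, led by *Hbb-bs*, *Hba-a1* and *Ermap*, were higher in 9 of 9 cases and summed to between 1729 and 2472 CPM in *WT Phf6,RE9a* and between 6032 and 6900 CPM in *VC Phf6,RE9a* libraries. Granulocyte and monocyte markers, led by *S100a9*, *Ngp* and *S100a8*, were higher in 13 of 14. Megakaryocyte and platelet markers, led by *Itga2b*, *Gp1ba* and *Treml1*, were lower in 3 and higher in 2 of 6 tested, and their sum went from 268 to 390 CPM in *WT Phf6,RE9a* to 61.6 to 80.3 CPM in *VC Phf6,RE9a* libraries, with *Gp1bb* at 0. Most of the *WT Phf6,RE9a* sum came from *Itga2b*, at 165 to 291 CPM in *WT Phf6,RE9a* and 14.2 to 14.4 CPM in *VC Phf6,RE9a* libraries. Macrophage and dendritic cell markers, led by *Cd74*, *Vcam1* and *H2-Aa*, were higher in 2 of 11, with sums of 36.3 to 48.6 CPM in *WT Phf6,RE9a* against 56.9 to 82.7 CPM in *VC Phf6,RE9a* libraries. T and NK cell markers (led by *Cd247*, *Lck* and *Nkg7*) summed to at most 20.96 CPM, with 1 lower and 2 higher of 3 tested. Stromal markers (led by *Cxcl12*, *Pdgfrb* and *Col1a1*) summed to at most 6.88 CPM, with 1 lower and 1 higher of 2 tested and *Col3a1* at 0.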

How the data were processed

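RNA of GFP+ mouse AML cells was compared between 3 *WT Phf6,RE9a* and 3 *VC Phf6,RE9a* libraries, made with a TruSeq kit and grouped by the genotype in the labels. The authors deposited whole-number counts per gene, with no normalization. They also deposited FPKM, which per the file headers are scaled to gene length and library size, and were used for levels between genes. The authors' deposited comparison (group means of normalized counts as signal, log2 fold changes, p-values) was not used. Every per-sample column was used (0 left out). The submitters' processing notes name Bowtie 0.12.0 and mm8 without a role, whereas 98.3% of the 54409 genes with an identifier in GENCODE M21 (GRCm38) have the same start and end there, all 10 members included, which is why positions are those of the table and called GRCm38. The counting tool, annotation and strand setting are not given in the sources used here.

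In R 4.3.3, genes were filtered by edgeR 4.0.16 (filterByExpr), scaled by TMM and tested on all 6 libraries (two-sided quasi-likelihood test, Benjamini-Hochberg over 14169 genes, threshold 0.05). The fit was also run on counts simulated from the means and dispersions of these data with known changes, an outcome not reported here. Standard errors are the log2 fold change over the square root of the F statistic. Counting intervals are exact binomial intervals of the summed counts. Intervals and the limit of 3 counts that a count of 0 allows cover counting error only, since PCR copies cannot be recognised. Within groups no pair of libraries agreed within counting noise (chi-square of 11.8 to 46.4 per gene), and Pearson's r across genes was 0.982 to 0.992 within and 0.902 to 0.933 between groups. The p-values measure the spread between these libraries, which may be technical. Alternatives were limma 3.58.1 on log2(FPKM + 1), DESeq2 1.42.0, RLE size factors, a minimum of 10 counts per library or none, a change of at least 2-fold, and leaving out each library. The members and lists were chosen with earlier results of these data known. Named are the members, *Phf6*, tested relatives, in both lists of other stem cell genes the 3 with the highest FPKM and the 5 with the smallest p in each direction that passed, and the 3 highest markers per cell type, except some genes that are not reported here. Promoters are from RefSeq (GRCm38.p6). Plots are from matplotlib 3.10.9 (Python 3.11.15).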

Additional observations from a re-analysis of the deposited data

How the results depend on the processing

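Of 86 alternative fits of the 8 tested members, 84 kept the direction and the side of the threshold, and 0 reversed. *Ly6a* lost its call without *VC Phf6,RE9a* replicate 11, at a log2 fold change of -3.07 (adjusted p = 0.0541 from edgeR), and ranged from -4.00 to -1.91 over the libraries left out in turn. *Hlf* passed without *WT Phf6,RE9a* replicate 2, at 0.91 (adjusted p = 0.0347 from edgeR), and ranged from 0.091 to 0.91. With at least 10 counts in every library, 0 members were called higher, because *Eng* and *Sox4* were then not among the genes tested, and 7 of the other stem cell regulators were called higher in place of 11. With a change of at least 2-fold required, 5 of these regulators were called lower in place of 13 and 7 higher in place of 11. In limma on log2(FPKM + 1), which shrinks low genes, the log2 fold changes were -3.93 for *Cd34*, -2.81 for *Slamf1*, -2.53 for *Ly6a*, 2.10 for *Eng* and 0.63 for *Sox4*, and the calls held, but the decrease of *Cd34* was then the largest and exceeded the rise of *Eng*. After the values were seen, each library was also left out of the ratios of summed counts and of the fits of the listed genes, and values from these are given beside the genes named with a left-out library. Among cell type markers, *Cd247*, *Nkg7*, *Treml1*, *Pdgfrb* and *Egfl7* each lost the call without at least 1 library. So did *Mpo* and *Itgam* of the granulocyte and monocyte list, *Prss34* of the mast cell list and *Itgax* of the macrophage list. The numbers of markers called in these lists thus depend on single libraries. Without *WT Phf6,RE9a* replicate 3 the edgeR log2 fold changes of *Pax5* and *Ighm* were 9.27 and 4.32 in place of 5.14 and 3.34. No paired analysis was possible because the groups share no replicate numbers. Depth limits *Procr* and *Mecom*, and in *WT Phf6,RE9a* cells *Eng* and *Sox4*, whose levels lie near 3 counts.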

Other observations

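Some further surface genes, chosen after their values were seen, were low in *WT Phf6,RE9a* cells and higher in *VC Phf6,RE9a* cells. *Tek*, the angiopoietin receptor TIE2 of stem and endothelial cells, had 0 counts in each *WT Phf6,RE9a* library and 72, 217 and 27 counts in *VC Phf6,RE9a* libraries, at least 31.9-fold higher with a limit of 3 counts per *WT Phf6,RE9a* library, and at least 15.1-fold higher without *VC Phf6,RE9a* library 12. *Prom1*, the CD133 gene, had 3, 1 and 12 counts in *WT Phf6,RE9a* and 79, 45 and 17 counts in *VC Phf6,RE9a* libraries, a log2FC of 3.005 ± 0.79 (edgeR adjusted p = 0.0176). Its ratio of summed counts was 8.07 with a 95% counting interval from 4.80 to 14.5, but 20.9 without *WT Phf6,RE9a* library 3 and 5.32 without *VC Phf6,RE9a* library 11, and the call was lost without *WT Phf6,RE9a* library 1 or *VC Phf6,RE9a* library 11 (edgeR adjusted p = 0.061 and 0.0618). *Il7r*, the receptor gene of early lymphoid cells, had 1, 11 and 4 counts in *WT Phf6,RE9a* and 43, 58 and 15 counts in *VC Phf6,RE9a* libraries, a log2FC of 2.69 ± 0.75 (edgeR adjusted p = 0.0221). Its ratio was 6.64 with an interval from 3.92 to 12.01, but 14.54 without *WT Phf6,RE9a* library 2, and the call was lost without *WT Phf6,RE9a* library 1 or 3 or *VC Phf6,RE9a* library 11 or 12 (edgeR adjusted p from 0.0587 to 0.0777). *Csf3r*, the G-CSF receptor gene, rose from 4.80 to 46.4 CPM (log2FC 3.26 ± 0.62, edgeR adjusted p = 0.00441, and 3.93 without *WT Phf6,RE9a* library 3), and *Cxcr4*, the homing receptor gene, from 3.69 to 18.8 CPM (2.33 ± 0.50, edgeR adjusted p = 0.00758, and 2.94 without *WT Phf6,RE9a* library 3). *Flt3*, a receptor gene of multipotent progenitors, went from 1.12 to 2.18 CPM and did not pass (log2FC 0.95, edgeR adjusted p = 0.143).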
